A study of Mus musculus with 9 samples.

Results

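Ovaries of mice that had received spermatogonial stem cells (SSCTR) were set against ovaries of a premature ovarian failure model (POF), across all probes above background. Of the 45281 probes on the chip, 17568 had a detection p-value under 0.05 on 2 or more of the 4 arrays compared (replicates 2 and 3 of each group). These gave 12734 features, of which 10247 are named genes represented by their brightest probe and 2487 are probes without 1 gene symbol. RNA of whole ovary was hybridized to Illumina BeadChips, with 2 SSCTR arrays, 2 POF arrays and 2 arrays of wild-type ovaries (WT). The 4 SSCTR and POF arrays are 4 of the 9 deposited samples. Per the labels all mice are C57BL/6. Age, the way in which failure was induced, the time of sampling and whether the recipients had failure before the transplant are not given in the sources used here. The replicate 1 columns are computed from replicates 2 and 3 and were left out. The labels do not say that replicates are separate animals, so p-values measure only the spread between these arrays, which may be technical.

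Spermatogonial stem cells are the germ line stem cells of the testis, which renew themselves and give rise to sperm. In the ovary the germ cells are oocytes, each enclosed in a follicle of granulosa cells and, outside these, theca cells that supply androgen for estrogen synthesis. Growing oocytes secrete factors that act on granulosa cells, and granulosa cells return metabolites through gap junctions and signal through Kit ligand. In ovarian failure the stock of follicles is exhausted or stops maturing, and the steroid output of the ovary falls.

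Levels are log2 intensities after background correction, so that a log2 change of 1 is a 2-fold difference. Every change is SSCTR minus POF with its standard error (SE, n = 2 arrays in each group). This SE is moderated by limma. It draws on all 6 arrays and on the spread of other features, and is not the spread of the gene's own replicates alone. Adjusted p-values come from limma. Where a probe was not above background on both arrays of the dimmer group, "at least" gives the fold over the higher, per array, of the probe's own level and the lowest level of any probe above background. Arrays of a group correlated at 0.988 for SSCTR and 0.987 for POF across the 12734 features, against 0.953 to 0.959 between the groups. Genes across an array are not independent replicates. Probes above background numbered 16546 and 16040 on the SSCTR arrays, against 17855 and 18041 on the POF arrays and 17752 and 18019 on the WT arrays. Ovary markers were present in both groups, among them Foxl2, Fshr and Inha of granulosa cells, Gdf9, Bmp15 and Zp3 of oocytes, and Cyp17a1 and Insl3 of theca cells. The probe of Amh, a hormone of growing follicles, was not above background on any of the 6 arrays. Because whole ovaries were measured, fewer cells of a type and less RNA per cell cannot be told apart.

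Markers of male cells were near background. The 13 probes of 7 Y-linked genes were above background 0 times on both SSCTR arrays, against 1 probe on POF replicate 2 and 1 on WT replicate 3. No probe of the sperm packaging genes Prm1 and Tnp1 was above background on any array. A second check bears on the strain label. H2-Ea, an MHC class II chain gene that C57BL/6 mice are known not to transcribe, read 7.26 and 7.33 in SSCTR, against 4.33 and 4.29 in POF and 5.94 and 7.61 in WT, and its probe was above background on the SSCTR and WT arrays and on neither POF array. The H2-Ea levels thus go against the strain label of the SSCTR and WT samples, and strain and group cannot be told apart wherever the mice may differ in both.

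Of the 12734 features, 1865 (14.6%) passed an adjusted p of 0.05, with 803 higher (6.31%) and 1062 lower (8.34%) in SSCTR. A change of at least 2-fold was added to the threshold for a second count, which 868 features (6.82%) reached. Among the named genes 656 were higher and 844 lower, and 694 changed at least 2-fold, with 249 higher and 445 lower. The median log2 change over all features was 0.03. Each fit without 1 of the 4 arrays called 753 to 909 named genes, and 559 genes (196 higher, 363 lower) were called in all 4 of these fits, in which the lone array of a group is assumed to vary like the others. The WT arrays share the fit, and WT levels stand beside those of SSCTR and POF as values only. A gene above background in SSCTR or POF alone passes the detection filter through that group, so its direction is set by the filter. Such genes add to the counts and medians of the gene lists. Where the count of a gene list moved by over 1.5 times in a fit without 1 SSCTR or POF array, the range over these fits stands beside it. The plot of changes by gene group shows medians below 0 for secretory, class II and macrophage genes and above 0 for oocyte, mitosis and sterol genes, with single members on the other side, such as H2-Ea of class II and Cdca8 of mitosis. The shares called in the hedgehog, steroid synthesis, collagen, chemokine, Notch and p53 lists (11.1% to 16.7% in either direction) were near that of all features. The ribosomal protein list (lower calls) and respiratory chain list (higher calls) had smaller shares than the 8.34% lower and 6.31% higher of all features.

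**Figure D1:**
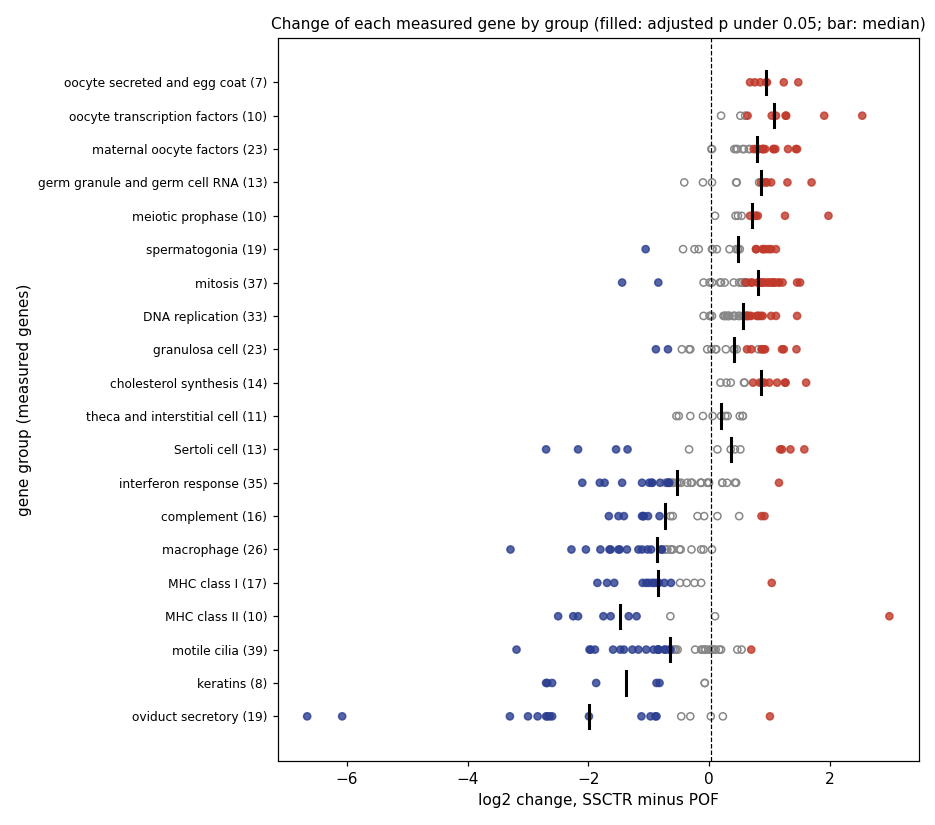
Log2 change, SSCTR minus POF (x axis), of each measured member (point) of 20 gene groups (y axis). Filled points passed an adjusted p of 0.05, the bar is the group's median, and the dashed line is the median over all features, 0.03. The median was 1.07 for oocyte transcription factors and -1.99 for oviduct secretory genes.

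The largest rises joined secreted proteins, receptors and regulators. Bpifb6, a member of the BPI fold family of lipid-binding proteins, read 10.71 and 10.50 in SSCTR, against 5.40 and 4.97 in POF and 6.91 and 7.25 in WT, a log2 change of 5.42 ± 0.21 (adjusted p = 8.32e-06). Rln1 encodes relaxin, a peptide hormone that loosens connective tissue and is made by the corpus luteum in pregnant rodents. Its level was 8.35 and 8.01 in SSCTR, against 4.56 and 4.71 in POF and 4.87 and 4.83 in WT, and since its probe was not above background on either POF array, it was at least 11-fold higher in SSCTR (adjusted p = 1.95e-05). The class II phosphoinositide kinase gene Pik3c2g had 11.20 and 11.03 in SSCTR, against 8.16 and 7.94 in POF and 10.22 and 10.05 in WT, a change of 3.06 ± 0.17 (adjusted p = 2.55e-05). For these genes both SSCTR arrays were above both POF arrays, and SSCTR also read higher than WT.

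Nobox and Nicn1 were near their WT levels in SSCTR and low in POF. Nicn1, a subunit of the enzyme complex that adds glutamate chains to tubulin, read 8.78 and 8.77 in SSCTR, against 6.19 and 6.33 in POF and 8.88 and 8.74 in WT, a log2 change of 2.51 ± 0.16 (adjusted p = 5.05e-05). SSCTR lay above both POF and WT, and POF nearer to WT, for Nat8, Tnfrsf9, Bace2, Snai3 and Serpina6. Nat8, an acetyltransferase, had 7.98 and 7.46 in SSCTR, against 5.40 and 5.13 in POF and 4.70 and 4.45 in WT, a change of 2.45 ± 0.22 (adjusted p = 0.000244). Tnfrsf9, a co-stimulatory receptor of T cells, read 7.41 and 7.20 in SSCTR, against 4.86 and 4.85 in POF and 4.46 and 4.48 in WT, a change of 2.45 ± 0.16 (adjusted p = 5.87e-05). The aspartyl protease gene Bace2 stood at 10.53 and 10.48 in SSCTR, against 8.53 and 7.74 in POF and 7.94 and 8.16 in WT, a change of 2.37 ± 0.25 (adjusted p = 0.000606). Snai3, of the Snail family of transcription factors, changed by 2.34 ± 0.19 (adjusted p = 0.000128), and Serpina6, which encodes the corticosteroid-binding globulin of plasma, was not above background in POF and at least 3.33-fold higher in SSCTR (adjusted p = 9.62e-05). Itga2, a collagen-binding integrin chain, was at least 4.91-fold higher and read 7.34 and 7.28 in SSCTR, against 5.31 and 4.59 in POF and 6.99 and 7.20 in WT, with SSCTR near WT.

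The largest falls were led by secreted proteins that POF ovaries held at high levels. A2ml1, a protease inhibitor of the alpha-2-macroglobulin family, read 4.42 and 4.28 in SSCTR, against 11.28 and 11.17 in POF and 4.50 and 4.30 in WT. It was at least 83-fold lower in SSCTR (adjusted p = 7.24e-07), and its second probe, also not above background in SSCTR, at least 78.4-fold. Ovgp1, the oviduct glycoprotein that coats the egg after ovulation, had 4.45 and 4.72 in SSCTR, against 11.34 and 11.16 in POF and 4.94 and 4.44 in WT and was at least 84.5-fold lower (adjusted p = 3.25e-06), while its second probe, near background on all arrays, did not pass the test. Ltf, the iron-binding lactotransferrin, stood at 5.37 and 5.43 in SSCTR, against 11.75 and 11.20 in POF and 6.45 and 7.03 in WT, a log2 change of -6.08 ± 0.25 (adjusted p = 8.7e-06). POF alone was high for A2ml1 and Ovgp1, with SSCTR and WT both near background.

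Further members of the 15 largest falls repeated this order of groups. Padi1, an enzyme that turns arginine into citrulline, was at least 17.3-fold lower, with 4.31 and 4.69 in SSCTR, against 9.33 and 8.59 in POF and 4.51 and 4.54 in WT. Mia, a small secreted protein first found in melanoma cells, changed by -4.31 ± 0.19 (adjusted p = 1.1e-05) and its second probe by -4.05. Myl1, a myosin light chain of skeletal muscle, read 5.91 and 6.19 in SSCTR, against 9.14 and 9.79 in POF and 5.77 and 6.24 in WT, a change of -3.41 ± 0.26 (adjusted p = 9.84e-05). Ctsc, the cysteine protease that activates serine proteases of granules, changed by -3.32 ± 0.16 (adjusted p = 1.58e-05), and its other probes were at least 4.96-fold and 8.26-fold lower. Sftpd, a lung surfactant collectin that binds microbes, was at least 8.54-fold lower. The peptide transporter gene Slc15a2 was at least 7.61-fold lower, and Ecrg4, which encodes a secreted peptide precursor, at least 9.57-fold, with 4.85 and 4.84 in SSCTR, against 8.06 and 8.18 in POF and 5.38 and 5.78 in WT for Ecrg4. The plot of the 30 named genes shows no overlap between SSCTR and POF, which the choice of these genes fixes.

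**Figure D2:**
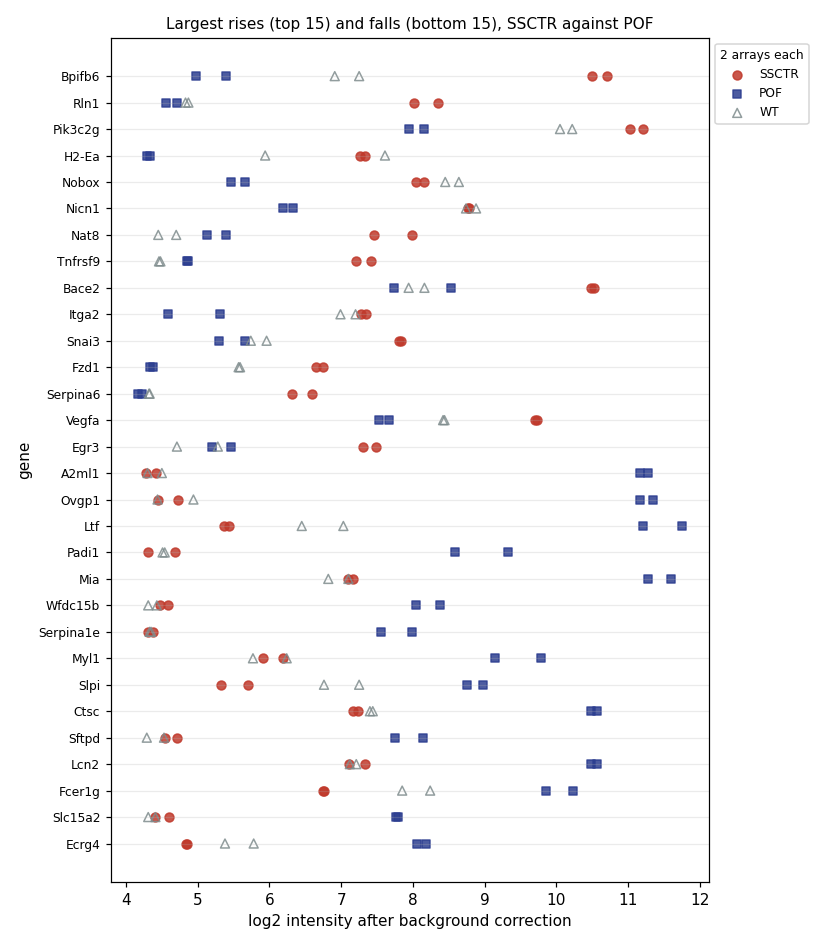
Log2 intensity (x axis) of the 15 named genes with the largest rises and the 15 with the largest falls (y axis) on each array. Circles are SSCTR, squares POF and triangles WT, with 2 arrays each. A2ml1 and Ovgp1 sit above 11 on the POF arrays only.

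Oocyte genes were higher in SSCTR. All 7 measured genes of the oocyte's secreted factors and egg coat passed the test as higher (4 to 6 without 1 array), of 8 listed, with a median log2 change of 0.95. Gdf9, the growth factor through which oocytes steer granulosa cells, read 8.89 and 8.78 in SSCTR, against 7.43 and 7.28 in POF and 10.09 and 10.16 in WT, a change of 1.48 ± 0.16 (adjusted p = 0.000697). Its partner Bmp15 had 10.68 and 10.73 in SSCTR, against 9.82 and 9.89 in POF and 11.11 and 11.08 in WT, a change of 0.85 ± 0.16 (adjusted p = 0.00848). Among the egg coat glycoproteins, Zp1 changed by 1.24 ± 0.19, Zp2 by 0.68 ± 0.18 and Zp3 by 0.76 ± 0.19. For Gdf9 and Bmp15 the SSCTR arrays lay between those of POF and WT. Fgf8, an oocyte signal that drives glycolysis in the surrounding cumulus cells, changed by 0.95 ± 0.16, and Oosp1, an oocyte-secreted protein, by 0.96 ± 0.17. Bmp15 missed the threshold without SSCTR replicate 3 (adjusted p = 0.0508), and Zp3 without SSCTR replicate 2, SSCTR replicate 3 or POF replicate 3 (adjusted p 0.0923 to 0.151). Zp2 missed the threshold without any of the 4 arrays (adjusted p 0.0564 to 0.172).

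Transcription factors that establish or maintain the oocyte programme rose with them. Of 10 measured genes (11 listed) 7 were higher, with a median of 1.07. Nobox, a homeobox factor needed for the growth of early follicles, read 8.15 and 8.04 in SSCTR, against 5.46 and 5.66 in POF and 8.45 and 8.64 in WT, a log2 change of 2.54 ± 0.17 (adjusted p = 5.94e-05). Sohlh2, a helix-loop-helix factor of early germ cells, had 8.95 and 8.98 in SSCTR, against 7.13 and 6.98 in POF and 8.59 and 8.76 in WT, a change of 1.91 ± 0.17 (adjusted p = 0.000212), and its partner Sohlh1 changed by 1.11 ± 0.17 (adjusted p = 0.0036). Figla, which activates the egg coat genes, changed by 1.04 ± 0.19 and Lhx8 by 0.64 ± 0.18. The homeobox gene Obox5 changed by 1.28 ± 0.20, and Obox1, above background on 1 of 2 POF arrays, was at least 2.19-fold higher. Foxo3, which keeps primordial follicles dormant, did not pass the test, with 8.05 and 8.22 in SSCTR, against 8.11 and 7.76 in POF and 9.88 and 9.88 in WT (adjusted p = 0.512). In this group Nobox and Sohlh2 were close to WT in SSCTR, whereas Foxo3 was low in both SSCTR and POF beside WT. Figla missed the threshold without POF replicate 3 (adjusted p = 0.0521), and Lhx8 without any of the 4 arrays (adjusted p 0.0553 to 0.219).

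Maternal factors, proteins and RNAs that the egg stores for the embryo, showed 14 of 23 measured genes higher (36 listed, and 5 to 8 higher without 1 array), with a median of 0.80. Nlrp4b read 8.98 and 8.95 in SSCTR, against 7.74 and 7.28 in POF and 8.54 and 8.73 in WT, a log2 change of 1.46 ± 0.20 (adjusted p = 0.00196), and its relative Nlrp14 had 10.75 and 10.97 in SSCTR, against 9.74 and 9.86 in POF and 10.76 and 10.69 in WT, a change of 1.07 ± 0.17 (adjusted p = 0.00409). Rfpl4, which acts in protein turnover of the egg, changed by 1.44 ± 0.20 (adjusted p = 0.00197), and Fbxw15, an F-box protein, by 1.31 ± 0.18 (adjusted p = 0.00238). H1f8, the linker histone of the oocyte, changed by 1.10 ± 0.25, Dppa3, which protects the maternal genome from loss of methylation, by 0.90 ± 0.17, and Mos, the kinase that holds the egg in meiotic arrest, by 0.89 ± 0.17. Ooep, a protein of the subcortical complex and the brightest of the list, stood at 11.22 and 10.66 in SSCTR, against 10.28 and 10.48 in POF, and did not pass the test (adjusted p = 0.128). The main probe of Nlrp5 changed by 0.74 ± 0.17, while its other probes did not pass, 1 of them near background and the other with a change of 0.54. Rfpl4 had another probe that was above background on fewer than 4 arrays and did not pass the test. Dppa3 missed the threshold without SSCTR replicate 2 or POF replicate 3 (adjusted p 0.0537 to 0.0556), and H1f8 without SSCTR replicate 3 or POF replicate 2 (adjusted p 0.12 to 0.129). Mos missed the threshold without SSCTR replicate 3 or POF replicate 3 (adjusted p 0.0574 to 0.0669), and Nlrp5 without any of the 4 arrays (adjusted p 0.0524 to 0.126).

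Germ cell genes that testis and ovary share followed the same direction. In the list of germ granule and germ cell RNA regulators 7 of 13 measured genes were higher (23 listed, and 3 to 7 higher without 1 array), with a median of 0.86. Tex14, which keeps the bridges between germ cells open, read 8.92 and 8.72 in SSCTR, against 7.18 and 7.04 in POF and 6.64 and 7.02 in WT, a log2 change of 1.70 ± 0.19 (adjusted p = 0.000759), and SSCTR exceeded both POF and WT. Ddx4, the RNA helicase that marks germ cells of both sexes, had 9.99 and 9.75 in SSCTR, against 9.22 and 8.72 in POF and 10.32 and 10.36 in WT, a change of 0.90 ± 0.21 (adjusted p = 0.0219). Dazl, a translation regulator of germ cells, changed by 0.94 ± 0.17 (adjusted p = 0.008), Elavl2 by 1.03 ± 0.18 and Dnd1 by 0.96 ± 0.16. Nanos1, a translation repressor, was above background on 1 of 2 POF arrays and at least 2.34-fold higher, with 6.04 and 5.95 in SSCTR, against 4.82 and 4.56 in POF and 5.88 and 6.09 in WT. Nanos2, a regulator of male germ stem cells, had 4.99 and 4.99 in SSCTR, against 4.39 and 4.69 in POF and 5.15 and 5.14 in WT and did not pass the test (adjusted p = 0.122). Dazl had another probe that did not pass the test (0.80). Dazl and Elavl2 missed the threshold without POF replicate 3 (adjusted p 0.0512 to 0.057), and Ddx4 without SSCTR replicate 2, SSCTR replicate 3 or POF replicate 3 (adjusted p 0.053 to 0.12).

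Of the 10 measured meiosis genes (25 listed) 6 were higher (3 to 4 without 1 array), with a median of 0.72. Sycp1, the central filament of the synaptonemal complex that pairs chromosomes, read 8.37 and 8.56 in SSCTR, against 6.42 and 6.54 in POF and 7.94 and 8.09 in WT, a log2 change of 1.98 ± 0.17 (adjusted p = 0.000192). Dmc1, the meiotic recombinase, had 7.69 and 7.87 in SSCTR, against 6.71 and 6.32 in POF and 7.39 and 7.38 in WT, a change of 1.26 ± 0.19 (adjusted p = 0.00313). Sycp3 changed by 0.81 ± 0.17, and Stra8, which starts meiosis under retinoic acid, by 0.78 ± 0.17. Msh4, the brightest of the list, changed by 0.68 ± 0.16. Sycp3 missed the threshold without SSCTR replicate 3 or POF replicate 2 (adjusted p 0.0808 to 0.0876), and Stra8 without SSCTR replicate 2, POF replicate 2 or POF replicate 3 (adjusted p 0.0627 to 0.0975). Msh4 missed the threshold without any of the 4 arrays (adjusted p 0.076 to 0.116).

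Genes known from spermatogonia were read next, since these were the transplanted cells. Of 19 measured genes (30 listed) 8 were higher (3 to 6 without 1 array) and 1 lower, with a median of 0.48. Zbtb16, Gfra1, Ret and Id4 were among the listed genes that are on the chip but did not pass the detection filter. The calls included genes that oocytes also express, among them Sohlh1, Ddx4, Dazl, Stra8 and Kit. Sall4, a pluripotency factor of germ stem cells and oocytes, read 6.92 and 6.85 in SSCTR, against 5.75 and 5.96 in POF and 6.42 and 6.55 in WT, a log2 change of 1.03 ± 0.17 (adjusted p = 0.00483). Taf7l, a transcription cofactor of male germ cells, was not above background in POF or WT, with 5.24 and 5.46 in SSCTR, against 4.31 and 4.40 in POF and 4.40 and 4.47 in WT, and was at least 1.54-fold higher (adjusted p = 0.00555). Itga6, an integrin chain used to sort spermatogonia, had 6.52 and 6.62 in SSCTR, against 5.74 and 5.84 in POF and 4.88 and 4.67 in WT, a change of 0.78 ± 0.17 (adjusted p = 0.0165). Cd9, a surface protein of spermatogonia and of many other cells, fell by 1.05 on the log2 scale, with 8.87 and 8.57 in SSCTR, against 9.79 and 9.76 in POF (adjusted p = 0.00628). Kit changed by 0.89 ± 0.17 on its main probe while a dimmer probe, not above background in SSCTR, passed the test in the other direction, at least 1.41-fold lower. Among 4 measured spermatid genes (20 listed) limma called 0 at the adjusted threshold and 2 at an unadjusted p of 0.05, and the brightest of them, Crem, had 6.49 and 6.66 in SSCTR, against 6.25 and 6.43 in POF. Kit missed the threshold without SSCTR replicate 2 or POF replicate 3 (adjusted p 0.0642 to 0.0771), and Itga6 without any of the 4 arrays (adjusted p 0.0551 to 0.0903).

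**Figure D3:**
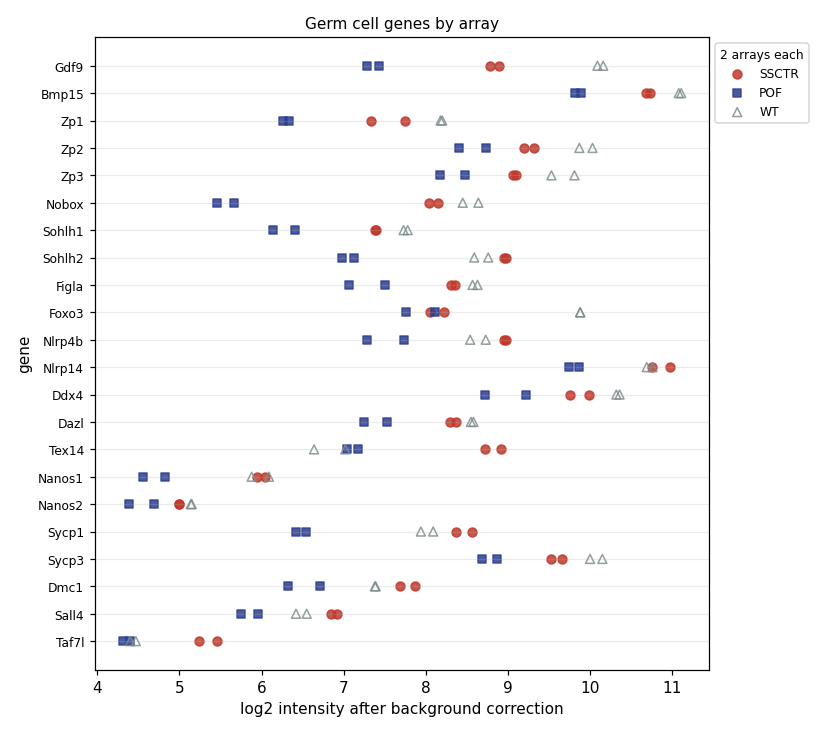
Log2 intensity (x axis) of germ cell genes (y axis) on each array. Circles are SSCTR, squares POF and triangles WT, with 2 arrays each. SSCTR arrays lie above POF arrays except for Foxo3, where they overlap, and Nanos2 did not pass the test. For Gdf9 the levels were 8.89 and 8.78 in SSCTR, against 7.43 and 7.28 in POF and 10.09 and 10.16 in WT.

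Cell division genes were higher in SSCTR. Of 37 measured genes of mitosis (57 listed) 22 were higher (12 to 13 without 1 array) and 2 lower (1 to 2 without 1 array), with a median of 0.81. Kif11, the motor that separates spindle poles, read 7.67 and 7.45 in SSCTR, against 5.88 and 6.22 in POF and 7.04 and 7.24 in WT, a log2 change of 1.51 ± 0.19 (adjusted p = 0.00138). Ndc80, a kinetochore protein that holds microtubules, had 6.40 and 6.08 in SSCTR, against 4.67 and 4.89 in POF and 5.52 and 5.41 in WT, and was at least 2.7-fold higher, being above background on 1 of 2 POF arrays (adjusted p = 0.00138). Birc5, a subunit of the chromosomal passenger complex, changed by 1.16 ± 0.20 (adjusted p = 0.00611), and Cdk1, the kinase that starts mitosis, by 1.16 ± 0.23 (adjusted p = 0.0111). Prc1, the brightest of the list, changed by 0.82 ± 0.17. The 2 lower calls were Aurka (-0.84) and Cdca8 (-1.44), and a second probe of Cdca8 passed the test in the other direction with 1.07. Cdk1 had another probe, not above background in SSCTR, that changed in the other direction (-0.60) and did not pass the test. Prc1 missed the threshold without SSCTR replicate 2 or POF replicate 3 (adjusted p 0.08 to 0.0882), and Cdk1 without SSCTR replicate 3 or POF replicate 2 (adjusted p 0.0535 to 0.0651). Aurka missed the threshold without SSCTR replicate 3, POF replicate 2 or POF replicate 3 (adjusted p 0.0717 to 0.122).

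DNA replication genes showed 11 of 33 measured members higher (43 listed, and 4 to 5 higher without 1 array), with a median of 0.56 (0.50 with genes near background at their bound). Mcm10, which helps to assemble the replicative helicase, read 7.91 and 7.96 in SSCTR, against 6.38 and 6.57 in POF and 7.86 and 8.10 in WT, a log2 change of 1.46 ± 0.17 (adjusted p = 0.00101). Gins1, of the helicase, changed by 1.11 ± 0.19 (adjusted p = 0.00621), and its subunits Mcm5 by 1.03 ± 0.17 (adjusted p = 0.00585) and Mcm2 by 0.86 ± 0.21 (adjusted p = 0.0266). SSCTR levels of Mcm10 and Gins1 lay close to WT. Tyms, which makes thymidylate, changed by 0.79 ± 0.17. Tyms missed the threshold without SSCTR replicate 2 or POF replicate 3 (adjusted p 0.0864 to 0.0912), and Mcm2 without SSCTR replicate 3, POF replicate 2 or POF replicate 3 (adjusted p 0.105 to 0.141).

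Granulosa cell genes split. Of 23 measured (32 listed) 9 were higher and 2 lower (0 to 2 without 1 array), with a median of 0.42. Kitl, the ligand of the Kit receptor on oocytes, read 7.88 and 7.83 in SSCTR, against 6.45 and 6.35 in POF and 5.41 and 5.25 in WT on the probe that stands for it, a log2 change of 1.45 ± 0.16 (adjusted p = 0.000764). A second Kitl probe had 9.59 and 9.07 in SSCTR, against 4.69 and 5.03 in POF and 7.95 and 8.08 in WT, at least 21.9-fold higher, and another changed by 0.10 and did not pass. Esr2, the main estrogen receptor of granulosa cells, had 10.01 and 9.89 in SSCTR, against 8.76 and 8.66 in POF and 9.40 and 9.24 in WT, a change of 1.24 ± 0.16 (adjusted p = 0.00185). Foxl2, which keeps granulosa cells from turning into Sertoli cells, changed by 0.88 ± 0.17 (adjusted p = 0.00972), and Fshr, the receptor of follicle-stimulating hormone, by 0.63 ± 0.16 on its main probe and 0.14 on another. The gap junction protein gene Gja1, which joins granulosa cells, changed by 0.87 ± 0.16. The 2 lower calls were Grem1, a secreted BMP antagonist (-0.88), and Igfbp5, the brightest of the list (-0.68). Esr2 and Igfbp5 had other probes that did not pass the test, with log2 changes of 0.71 for Esr2 and -0.48 and -0.54 for Igfbp5. Grem1 missed the threshold without SSCTR replicate 2 or POF replicate 3 (adjusted p 0.0645 to 0.0747), and Foxl2 without SSCTR replicate 3 or POF replicate 2 (adjusted p 0.0503 to 0.0594). Igfbp5 missed the threshold without SSCTR replicate 2, SSCTR replicate 3 or POF replicate 3 (adjusted p 0.0948 to 0.168), and Fshr without any of the 4 arrays (adjusted p 0.0848 to 0.129).

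Activins and BMPs are dimeric ligands that act on serine kinase receptors and Smad proteins, and follistatin and gremlin bind and block them. Of 26 measured genes of this system (32 listed) 8 were higher (5 to 7 without 1 array) and 2 lower (0 to 2 without 1 array), with a median of 0.13. Among ligands, the activin subunit Inhba read 11.42 and 11.26 in SSCTR, against 10.57 and 10.29 in POF, a log2 change of 0.91 ± 0.18 (adjusted p = 0.0122), and Bmp2 changed by 1.16 ± 0.17 (adjusted p = 0.00325). The activin antagonist Fst had 11.14 and 11.28 in SSCTR, against 10.04 and 9.97 in POF and 10.34 and 10.49 in WT, a change of 1.21 ± 0.16 (adjusted p = 0.00196), with both SSCTR arrays above both WT arrays. Of receptors and mediators, Bmpr1a changed by 0.97 ± 0.16, Smad1 by 1.13 ± 0.16, Smad3 by 1.02 ± 0.17 and Smad2 by 0.90 ± 0.18. Other probes of Smad1 and Smad3 changed by 0.03 and 0.72 and did not pass, nor did a second of Bmpr1a, near background. Inhba missed the threshold without SSCTR replicate 2 or POF replicate 3 (adjusted p 0.0684 to 0.0836), and Smad2 without SSCTR replicate 3, POF replicate 2 or POF replicate 3 (adjusted p 0.0577 to 0.0744).

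Sertoli cells are the somatic partners of germ cells in the testis, and their markers moved both ways: of 13 measured genes (21 listed) 4 were higher and 4 lower, with a median of 0.36 (0.14 with genes near background at their bound). Sox9, the factor that defines the cell type, did not pass the test, with 7.26 and 7.45 in SSCTR, against 7.33 and 7.12 in POF and 6.79 and 6.54 in WT (adjusted p = 0.672). The cystatins Cst12 and Cst9 changed by 1.58 ± 0.26 (adjusted p = 0.00548) and 1.21 ± 0.18 (adjusted p = 0.00348), and Shbg, the sex hormone-binding globulin, by 1.35 ± 0.18 (adjusted p = 0.00197). Krt18 changed by -2.70 ± 0.25 (adjusted p = 0.000279), and Trf, the iron carrier transferrin, by -2.17 ± 0.18 (adjusted p = 0.000185). Defb19, the brightest marker on each array, had 11.13 and 11.16 in SSCTR, against 12.60 and 12.39 in POF and 11.55 and 11.40 in WT (-1.35). It weighs most in the sum over markers, which therefore does not describe the list as a whole. The summed level of the 13 markers was 6814 and 6976 intensity units in SSCTR, against 9609 and 9290 in POF and 5917 and 5832 in WT. Their part in other results was not tested.

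Of 16 measured genes of the gonadal steroid pathway (25 listed) 2 were higher (1 to 2 without 1 array), a share of 12.5% against 14.6% of all features called, with a median of 0.31. Hsd17b7, which makes estradiol and also acts in sterol synthesis, read 12.79 and 13.19 in SSCTR, against 11.60 and 11.16 in POF and 11.74 and 11.84 in WT, a log2 change of 1.61 ± 0.22 (adjusted p = 0.00187). Star, which moves cholesterol into mitochondria, had 9.52 and 9.30 in SSCTR, against 8.55 and 8.32 in POF and 7.93 and 8.27 in WT, a change of 0.97 ± 0.19 (adjusted p = 0.0113). Cyp17a1, the androgen-making enzyme of theca cells, stood at 9.87 and 9.78 in SSCTR, against 9.44 and 9.08 in POF and 10.09 and 10.10 in WT and did not pass the test (adjusted p = 0.0717). Of 11 measured theca and interstitial genes (15 listed) limma called 0, against 3 higher and 1 lower at an unadjusted p of 0.05, with a median of 0.20. Insl3, the theca peptide hormone, had 6.10 and 6.58 in SSCTR, against 7.09 and 6.67 in POF on its main probe, and a second probe changed by -1.33 and passed the test as lower (adjusted p = 0.0139). Of 15 measured luteal genes (19 listed) 5 were higher (2 to 5 without 1 array), namely Star, Vegfa, Wnt4, Sfrp4 and Timp1. Star missed the threshold without SSCTR replicate 2 or POF replicate 3 (adjusted p 0.0655 to 0.0793).

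Cholesterol synthesis runs through the mevalonate pathway to squalene and lanosterol, and its genes are switched on by the transcription factor SREBP-2. Of 14 measured genes (21 listed) 9 were higher (5 to 6 without 1 array), with a median of 0.86. Fdps, which makes farnesyl diphosphate, changed by 0.88 ± 0.16 (adjusted p = 0.00756) on the log2 scale. Sqle, which oxidizes squalene, changed by 0.84 ± 0.20 (adjusted p = 0.0259), Lss, which closes it to lanosterol, by 1.13 ± 0.20 (adjusted p = 0.00761), and Cyp51, which removes a methyl group from lanosterol, by 1.0 ± 0.17 (adjusted p = 0.00548). The levels of Cyp51 were 10.77 and 10.70 in SSCTR, against 9.66 and 9.81 in POF and 9.60 and 9.39 in WT. Dhcr7, which acts in the last steps, had 7.66 and 7.98 in SSCTR, against 6.43 and 6.67 in POF and 7.46 and 7.01 in WT and a change of 1.27 ± 0.21 (adjusted p = 0.00555). Tm7sf2, a sterol reductase that acts after Cyp51, was above background on 1 of 2 POF arrays and at least 2.33-fold higher. For Cyp51 the POF and WT levels were close and SSCTR lay above both. Without SSCTR replicate 3 the change of Tm7sf2 was 0.81. Sqle had another probe that did not pass the test (0.41). Tm7sf2 missed the threshold without SSCTR replicate 3, POF replicate 2 or POF replicate 3 (adjusted p 0.0627 to 0.1), and Sqle without any of the 4 arrays (adjusted p 0.0598 to 0.141).

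The promoters of 3 sterol genes are shown because the letters CCAAT, the core of the NF-Y box, were found in 11 of the 12 promoter windows given for this group (91.7%), against 37.9% of all 27025 windows. A window spans 250 bases before to 50 after the gene's start. The capitals mark CCAAT or its reverse complement ATTGG, and each line gives the 250 bases before the start from RefSeq, build GRCm38.p6, 5′ to 3′ on the gene's strand. Lss lies on the plus strand at chr10:76531355-76531604, Hsd17b7 on the minus strand at chr1:169969206-169969455 and Cyp51 on the minus strand at chr5:4104698-4104947.
Lss: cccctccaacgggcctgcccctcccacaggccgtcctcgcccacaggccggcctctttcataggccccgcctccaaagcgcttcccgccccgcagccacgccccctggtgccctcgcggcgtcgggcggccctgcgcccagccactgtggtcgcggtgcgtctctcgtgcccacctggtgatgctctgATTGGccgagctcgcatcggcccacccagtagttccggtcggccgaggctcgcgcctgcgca
Hsd17b7: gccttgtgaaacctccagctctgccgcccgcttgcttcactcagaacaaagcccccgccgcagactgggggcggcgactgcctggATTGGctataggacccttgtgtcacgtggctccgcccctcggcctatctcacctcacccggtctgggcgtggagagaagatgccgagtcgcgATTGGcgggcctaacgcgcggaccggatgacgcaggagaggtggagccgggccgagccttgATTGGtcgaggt
Cyp51: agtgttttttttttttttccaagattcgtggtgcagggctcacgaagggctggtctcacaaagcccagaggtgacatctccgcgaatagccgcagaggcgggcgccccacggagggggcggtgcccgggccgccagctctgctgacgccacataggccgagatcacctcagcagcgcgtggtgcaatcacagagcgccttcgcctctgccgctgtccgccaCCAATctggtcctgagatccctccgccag
Lss and Cyp51 each held 1 such match and Hsd17b7 held 3. Of the other motifs searched on both strands, TCACCCC, the core of a sterol element, was in 0 of the 12 windows, against 4.73% of all windows. TAATTG, a NOBOX element, was in 8.33%, against 8.15%, and the E-box CANNTG in 9 of the 12, against 72.1%. The share with CCAAT differed among the other groups searched. It was 70.6% of 17 windows of maternal factors, 68.8% of 32 of mitosis, 58.1% of 31 of motile cilia, 55.6% of 27 of DNA replication and 4 of 8 of kallikreins. It was 28.6% of 14 windows of oviduct secretory genes, 1 of 9 of oocyte transcription factors and 1 of 3 of the oocyte secreted group. TAATTG was in 23.5% of the maternal factor windows, in 0 of those of the other oocyte groups and of kallikreins, and in 3.23% to 9.38% of those of cilia, DNA replication, oviduct and mitosis genes. TCACCCC was in 0 to 11.8% and CANNTG in 65.6% or more of the windows of these groups. The gene groups searched and the windows shown were chosen after the expression values were seen, and a match is a description of letters only.

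Sterol handling outside the pathway gave 2 higher (1 without 1 array) and 3 lower calls (0 to 2 without 1 array) among 17 measured genes (26 listed). Apoa1, the main protein of high-density lipoprotein, read 10.10 and 10.05 in SSCTR, against 8.29 and 8.27 in POF and 9.93 and 10.26 in WT, a log2 change of 1.80 ± 0.18 (adjusted p = 0.000369), with SSCTR near WT. The other higher call was Npc2, a lysosomal cholesterol carrier, at 0.64 ± 0.16. Apoe, the apolipoprotein of macrophages and steroid-making cells, fell by 0.99 on the log2 scale, and Nr1h3, the oxysterol receptor LXR-alpha, by 0.94, with 6.87 and 6.73 in SSCTR, against 7.48 and 8.0 in POF for Nr1h3. Nr1h3 missed the threshold without SSCTR replicate 2, SSCTR replicate 3 or POF replicate 3 (adjusted p 0.0613 to 0.118), and Apoe without SSCTR replicate 3, POF replicate 2 or POF replicate 3 (adjusted p 0.0577 to 0.0649). Npc2 missed the threshold without any of the 4 arrays (adjusted p 0.0638 to 0.159).

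Of 3 measured relaxin family genes (9 listed) 2 were higher, Rln1 and Insl6. Insl6, a peptide known from male germ cells, read 8.57 and 8.59 in SSCTR, against 7.21 and 6.99 in POF and 7.19 and 7.11 in WT, a log2 change of 1.48 ± 0.17 (adjusted p = 0.000759). In the insulin-like growth factor system 3 of 16 measured genes (21 listed) were higher (1 without 1 array) and 4 lower (2 to 3 without 1 array). Igf1, the growth factor, had 10.29 and 10.38 in SSCTR, against 9.39 and 9.42 in POF and 9.88 and 9.98 in WT, a change of 0.93 ± 0.16 (adjusted p = 0.00603). Its receptor gene Igf1r changed by 0.58 ± 0.16 on the main probe. A second probe had 10.01 and 10.14 in SSCTR, against 6.95 and 6.62 in POF and 8.65 and 8.55 in WT. It changed by 3.29 and passed the limma test (adjusted p = 2.22e-05). Another, near background, changed by 0.31 and did not pass, so the probes of Igf1r disagree in size. Pappa, the protease that frees the factor from its binding proteins, fell by 1.31, and Stc2, which blocks that protease, by 1.30 on the log2 scale. The binding protein gene Igfbp2 read 7.48 and 6.84 in SSCTR, against 8.39 and 8.37 in POF and 8.85 and 9.08 in WT, a change of -1.22 ± 0.23 (adjusted p = 0.00887). Igf1 and Igfbp2 had other probes that did not pass the test, with log2 changes of 0.45 for Igf1 and -0.52 for Igfbp2. Igfbp2 missed the threshold without POF replicate 2 or POF replicate 3 (adjusted p 0.0545 to 0.0586), and Igf1r without any of the 4 arrays (adjusted p 0.107 to 0.163).

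Wnt proteins signal through Frizzled receptors and beta-catenin. Of 25 measured genes (44 listed) 5 were higher (3 to 4 without 1 array) and 3 lower (1 to 2 without 1 array). Wnt4, the ligand that supports the female gonad, read 9.14 and 9.01 in SSCTR, against 8.14 and 7.74 in POF and 8.85 and 8.78 in WT, a log2 change of 1.14 ± 0.19 (adjusted p = 0.00496) on its main probe, and -0.68 on another that did not pass. The receptor gene Fzd1 was not above background in POF, with 6.75 and 6.65 in SSCTR, against 4.38 and 4.34 in POF and 5.57 and 5.59 in WT, and was at least 3.93-fold higher (adjusted p = 5.94e-05). Porcn, which attaches the lipid that Wnt proteins need for secretion, had 6.59 and 6.31 in SSCTR, against 4.81 and 5.04 in POF and 8.34 and 8.11 in WT, a change of 1.52 ± 0.19 (adjusted p = 0.00125), and both SSCTR and POF lay below WT. Ctnnb1, beta-catenin, changed by 0.84 ± 0.16, the ligand Wnt6 by -0.89 ± 0.16 and the target Axin2 by -0.84 ± 0.16. In the Notch list 1 of 12 measured genes (20 listed) was higher, Hey2 (1.18), and 1 lower, Rfng (at least 1.54-fold). In the hedgehog list 1 of 9 measured genes (16 listed) was lower, Cdon (-0.72), and its brightest member Ihh stood at 10.80 and 10.79 in SSCTR, against 10.88 and 10.91 in POF. A second Ihh probe passed the test as higher, with 6.30 and 6.33 in SSCTR, against 5.10 and 5.18 in POF (1.18, adjusted p = 0.0176). Ctnnb1 had other probes that did not pass the test (0.25 and 0.11). Axin2 missed the threshold without SSCTR replicate 3 or POF replicate 3 (adjusted p 0.0517 to 0.0546), and Ctnnb1, Rfng and Cdon without any of the 4 arrays (adjusted p 0.0503 to 0.147).

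Vessel genes held the angiogenic factor Vegfa among the largest rises. Vegfa read 9.73 and 9.70 in SSCTR, against 7.67 and 7.53 in POF and 8.42 and 8.44 in WT, a log2 change of 2.11 ± 0.16 (adjusted p = 9.62e-05), while a second probe changed by 0.37 and did not pass. Of 32 measured endothelial genes (38 listed) 5 were higher (2 to 3 without 1 array) and 2 lower (1 without 1 array). Nos3, the endothelial nitric oxide synthase, had 8.39 and 8.33 in SSCTR, against 7.29 and 7.26 in POF and 7.25 and 7.38 in WT, a change of 1.08 ± 0.16 (adjusted p = 0.00304), and the receptor gene Kdr changed by 0.69 ± 0.16. Plvap, a protein of fenestrated vessels, fell by 1.49 on the log2 scale. Of 20 measured smooth muscle and pericyte genes (24 listed) 4 were higher (0 to 3 without 1 array), among them Rgs5 (1.35) and Myocd (1.10). Beside the endothelial and smooth muscle counts, 6.31% of all features were higher and 8.34% lower. The summed level of the smooth muscle and pericyte genes was 36693 and 35682 intensity units in SSCTR, against 36584 and 34844 in POF and 32024 and 32301 in WT. Myocd had another probe that did not pass the test (0.83). Myocd missed the threshold without SSCTR replicate 2, SSCTR replicate 3 or POF replicate 3 (adjusted p 0.0867 to 0.167), and Rgs5 without SSCTR replicate 3, POF replicate 2 or POF replicate 3 (adjusted p 0.0534 to 0.0594). Kdr missed the threshold without any of the 4 arrays (adjusted p 0.0621 to 0.105).

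Genes that present antigen were lower in SSCTR. MHC class II molecules display peptides from engulfed material to helper T cells. Of 10 measured genes (14 listed) 7 were lower and 1 higher, with a median of -1.48. H2-Eb1 read 9.07 and 9.25 in SSCTR, against 11.32 and 11.50 in POF and 8.96 and 8.97 in WT, a log2 change of -2.25 ± 0.17 (adjusted p = 9.24e-05), and H2-Ab1 had 8.98 and 9.17 in SSCTR, against 11.40 and 11.08 in POF and 9.13 and 9.72 in WT, a change of -2.17 ± 0.23 (adjusted p = 0.000592). H2-Aa was not above background in SSCTR or WT and was at least 4.45-fold lower in SSCTR. Whether its probe reads all strains alike was not tested. The loading factor H2-DMa changed by -1.75 ± 0.22, H2-DMb1 by -1.33 ± 0.16 and the invariant chain Cd74 by -1.20 ± 0.20. The higher call was H2-Ea. Ciita, the factor that switches the class II genes on, had 4.58 and 4.95 in SSCTR, against 5.14 and 5.65 in POF and did not pass the test (adjusted p = 0.102). For H2-Eb1 and H2-Ab1 the SSCTR arrays were close to WT.

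The promoters of 2 class II genes are shown because their CCAAT box stands close to the start. Capitals mark CCAAT or ATTGG in the 250 bases before the start, from RefSeq, build GRCm38.p6, 5′ to 3′ on the gene's strand. H2-Eb1 lies on the plus strand at chr17:34305617-34305866 and H2-Aa on the minus strand at chr17:34287824-34288073.
H2-Eb1: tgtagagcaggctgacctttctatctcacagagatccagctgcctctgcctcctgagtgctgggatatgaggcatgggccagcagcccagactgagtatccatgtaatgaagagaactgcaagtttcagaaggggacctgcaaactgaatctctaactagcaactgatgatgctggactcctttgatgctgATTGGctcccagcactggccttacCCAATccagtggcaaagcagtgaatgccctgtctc
H2-Aa: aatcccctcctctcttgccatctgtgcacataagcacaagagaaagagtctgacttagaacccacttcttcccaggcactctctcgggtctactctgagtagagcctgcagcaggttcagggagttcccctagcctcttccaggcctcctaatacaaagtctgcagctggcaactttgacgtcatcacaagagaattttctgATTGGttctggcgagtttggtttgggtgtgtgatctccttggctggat
H2-Eb1 held 2 matches and H2-Aa held 1. CCAAT was in 4 of 6 class II windows (66.7%) and in 84.6% of 13 class I windows, against 37.9% of all windows. TCACCCC was in 16.7% of the class II and 23.1% of the class I windows, TAATTG in 0 and 7.69%, and CANNTG in 3 of the 6 class II and 61.5% of the class I windows.

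MHC class I molecules show peptides from within the cell to killer T cells. Of 17 measured genes (25 listed) 12 were lower (6 to 7 without 1 array) and 1 higher, with a median of -0.85. H2-Q8 was at least 2.53-fold lower, with 4.30 and 4.38 in SSCTR, against 6.08 and 6.30 in POF and 5.64 and 5.60 in WT. H2-M2 read 6.86 and 6.74 in SSCTR, against 8.42 and 8.56 in POF and 5.92 and 6.17 in WT, a log2 change of -1.69 ± 0.17 (adjusted p = 0.000485), and Nlrc5, the activator of class I genes, had 4.98 and 4.66 in SSCTR, against 6.34 and 6.43 in POF and 6.18 and 5.82 in WT and was at least 2.75-fold lower, being above background on 1 of 2 SSCTR arrays (adjusted p = 0.00136). The light chain B2m, the brightest of the list, changed by -0.85 ± 0.16 (adjusted p = 0.00972), and Tap1, the peptide transporter, by -1.0 ± 0.19 (adjusted p = 0.0107). The higher call was H2-Q6 (1.04), whose second probe changed by -0.12. Probes of H2-D1 disagreed, since the main one changed by -0.94 ± 0.22 and another, with 6.81 and 7.10 in SSCTR, against 4.57 and 4.54 in POF, was at least 4.69-fold higher. Class I genes are near-identical copies that differ between strains, so that probes may not tell them apart. B2m had another probe that did not pass the test (-0.45). H2-Q8 had another probe that was above background on fewer than 4 arrays and did not pass the test. B2m missed the threshold without SSCTR replicate 2 or POF replicate 2 (adjusted p 0.0555 to 0.057), and Tap1 without SSCTR replicate 3 or POF replicate 3 (adjusted p 0.0697 to 0.0753). H2-D1 missed the threshold without SSCTR replicate 2, SSCTR replicate 3 or POF replicate 3 (adjusted p 0.0512 to 0.133).

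Macrophage genes were lower: 15 of 26 measured (45 listed), with a median of -0.87. Fcer1g, the signal chain of antibody receptors, read 6.76 and 6.75 in SSCTR, against 10.23 and 9.86 in POF and 7.85 and 8.24 in WT, a log2 change of -3.29 ± 0.20 (adjusted p = 4.17e-05). Gpnmb, a membrane protein of lipid-laden macrophages, changed by -2.28 ± 0.17 (adjusted p = 9.62e-05). The antibody receptor genes Fcgr4 and Fcgr2b changed by -2.04 ± 0.17 (adjusted p = 0.000188) and -1.80 ± 0.16 (adjusted p = 0.000239), and the lysozyme gene Lyz2, the brightest called member, by -1.63 ± 0.23 (adjusted p = 0.00249). The summed level of the 26 genes was 10182 and 10967 intensity units in SSCTR, against 22449 and 26446 in POF and 9919 and 10949 in WT. None of the 4 probes of the general leukocyte marker Ptprc was above background on any array. Csf1r, the receptor of the macrophage growth factor, was above background in both groups on its main probe and did not pass the test. It read 5.76 and 6.21 in SSCTR, against 5.75 and 6.12 in POF (0.05). A second Csf1r probe, not above background in SSCTR, changed by -0.41 and did not pass either. The part of macrophages in the other results was not tested.

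Complement genes gave 8 lower (5 to 7 without 1 array) and 2 higher calls (0 to 1 without 1 array) among 16 measured (26 listed), with a median of -0.73 (-0.62 with genes near background at their bound). C4b read 6.43 and 5.97 in SSCTR, against 8.05 and 7.66 in POF and 6.55 and 6.81 in WT, a log2 change of -1.66 ± 0.22 (adjusted p = 0.00192), and C1qb, a chain of the C1q starter protein, had 9.14 and 8.91 in SSCTR, against 10.35 and 10.53 in POF and 9.28 and 9.40 in WT, a change of -1.41 ± 0.17 (adjusted p = 0.00124). C1qc changed by -1.11 ± 0.18, and Serping1, the C1 inhibitor, by -1.09 ± 0.17. C2, the brightest of the list, had 11.68 and 11.48 in SSCTR, against 11.46 and 11.40 in POF and did not pass the test (adjusted p = 0.634). Cfi, which cleaves active complement, was above background on 1 of 2 SSCTR arrays and at least 2.59-fold lower. Cfi missed the threshold without SSCTR replicate 3 (adjusted p = 0.0659).

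Interferons induce a large set of antiviral genes, of which 12 of 35 measured were lower (6 to 8 without 1 array) and 1 higher (62 listed), with a median of -0.53 (-0.46 with genes near background at their bound). Rsad2, which makes a chain-ending nucleotide, read 6.08 and 5.62 in SSCTR, against 8.04 and 7.85 in POF and 6.73 and 6.69 in WT, a log2 change of -2.10 ± 0.20 (adjusted p = 0.000311). Ly6e had 9.66 and 9.59 in SSCTR, against 11.20 and 11.51 in POF and 10.45 and 10.13 in WT, a change of -1.73 ± 0.19 (adjusted p = 0.000714), and Lgals3bp changed by -1.44 ± 0.18 (adjusted p = 0.00129). Ifi205 was at least 2.44-fold lower on its main probe, while a second, near background, did not pass the test. The brightest member, Gbp2, changed by -0.95 ± 0.17. The higher call was Bst2, the tether of budding virus, with 8.97 and 8.69 in SSCTR, against 8.16 and 7.18 in POF, and without POF replicate 3 it changed by 0.66. For chemokines 4 of 25 measured genes (45 listed) were lower, Ackr1, the decoy receptor of vessels (at least 3.58-fold), Cxcl10 (at least 2.39-fold), Cxcl16 (-1.12) and Cxcl9 (-1.03). Cxcl16 had another probe that was above background on fewer than 4 arrays and did not pass the test. Bst2 missed the threshold without SSCTR replicate 2, SSCTR replicate 3 or POF replicate 3 (adjusted p 0.0824 to 0.148).

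Other leukocytes had fewer measured markers. Of 15 measured lymphocyte genes (37 listed) 4 were lower (1 to 4 without 1 array), with a median of -0.36 (-0.16 with genes near background at their bound). Cd3g, a chain of the T cell receptor complex, read 5.55 and 5.34 in SSCTR, against 6.98 and 6.90 in POF and 6.20 and 6.20 in WT, a log2 change of -1.49 ± 0.16 (adjusted p = 0.000703). The other lower calls were Cd3d, Cd52 and Coro1a. Cd8b1, the brightest of the list, had 11.18 and 11.14 in SSCTR, against 10.91 and 10.90 in POF and did not pass (adjusted p = 0.331). Prf1, Foxp3 and Cd247 also changed upward without passing (0.32, 0.17 and 0.11). The neutrophil list had 4 of 8 measured genes lower (20 listed), of which Ltf and Lcn2 are also in the oviduct list. S100a8, a subunit of calprotectin, had 7.09 and 7.08 in SSCTR, against 9.40 and 8.90 in POF and 8.04 and 7.51 in WT, a change of -2.07 ± 0.24 (adjusted p = 0.000897), and its partner S100a9 was at least 1.54-fold lower. Of 9 measured mast cell genes (15 listed) 1 was higher (0 to 1 without 1 array), Kit, which oocytes also express, and 1 lower, Hdc, the histamine-making enzyme (-1.17 ± 0.16). With 9 measured genes, 1 call in each direction is close to the 6.31% higher and 8.34% lower of all features. The mast cell protease gene Cpa3 did not pass the test, with 5.44 and 5.08 in SSCTR, against 4.77 and 5.25 in POF. S100a9 missed the threshold without any of the 4 arrays (adjusted p 0.0663 to 0.115).

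**Figure D4:**
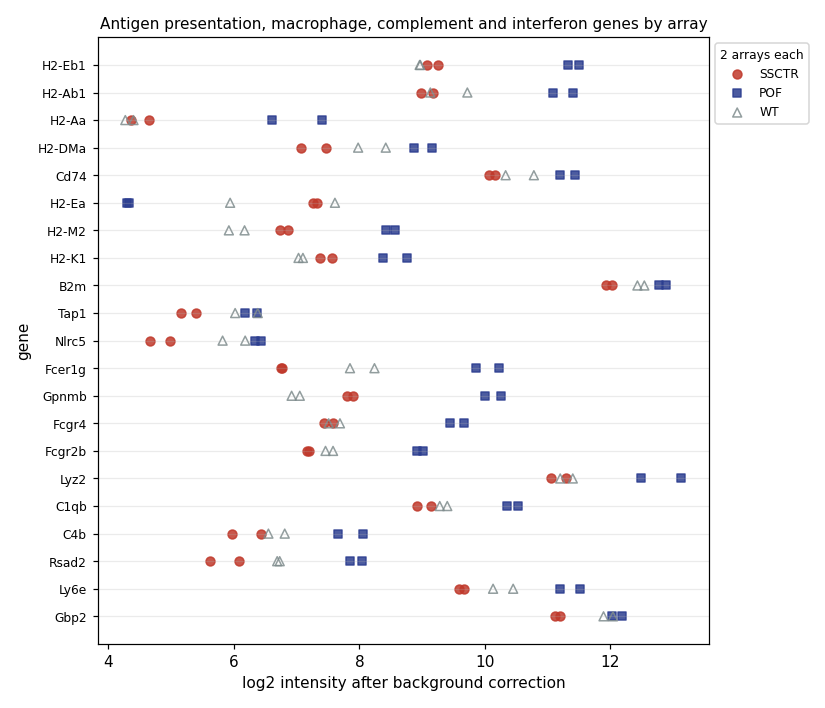
Log2 intensity (x axis) of antigen presentation, macrophage, complement and interferon genes (y axis) on each array. Circles are SSCTR, squares POF and triangles WT, with 2 arrays each. POF arrays lie right of SSCTR arrays for the genes drawn except H2-Ea.

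Genes of secretory epithelium formed the group with the lowest median, -1.99 (-1.55 with genes near background at their bound). Of 19 measured oviduct secretory genes (30 listed) 14 were lower and 1 higher. Wfdc2 read 6.39 and 6.08 in SSCTR, against 9.41 and 9.07 in POF and 6.52 and 6.22 in WT, a log2 change of -3.0 ± 0.21 (adjusted p = 6.42e-05). Lcn2, a lipocalin that binds bacterial iron carriers, had 7.33 and 7.11 in SSCTR, against 10.48 and 10.56 in POF and 7.21 and 7.12 in WT, a change of -3.30 ± 0.17 (adjusted p = 1.95e-05). Cldn3, a tight junction protein, was at least 5.14-fold lower, and the protease Tmprss2 at least 2.92-fold. The higher call was Cdh1, the adhesion protein E-cadherin, with 7.54 and 7.41 in SSCTR, against 6.61 and 6.33 in POF and 7.01 and 6.99 in WT (1.01). The summed level of the 19 genes was 1180 and 1184 intensity units in SSCTR, against 10529 and 9305 in POF and 1382 and 1396 in WT. Pax8, a defining factor of oviduct secretory cells, and Foxj1, that of ciliated cells, were not above background on any array. The part of oviduct tissue in these results was not tested.

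Motile cilia, which the oviduct uses to move eggs, gave 18 lower calls (8 to 12 without 1 array) and 1 higher among 39 measured genes (78 listed), with a median of -0.64 (-0.28 with genes near background at their bound). Dynlrb2, a dynein light chain, read 5.23 and 4.51 in SSCTR, against 8.23 and 7.90 in POF and 4.43 and 4.67 in WT and was at least 8.07-fold lower (adjusted p = 0.000134). Nme5, a protein of radial spokes, had 5.38 and 4.69 in SSCTR, against 7.06 and 6.92 in POF and 5.77 and 5.28 in WT and was at least 3.65-fold lower. Cdhr3, a cadherin of ciliated cells, was at least 2.84-fold lower, and 1110017D15Rik changed by -1.89 ± 0.25. The higher call was Ccno, a cyclin of cells that make many cilia, which is also expressed in oocytes (0.70). The summed level was 4707 and 4379 intensity units in SSCTR, against 5882 and 5398 in POF and 4612 and 4744 in WT. Ccno missed the threshold without SSCTR replicate 2, SSCTR replicate 3 or POF replicate 3 (adjusted p 0.121 to 0.191).

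Keratins and the surface layer of the ovary moved with these genes. Of 8 measured keratins (16 listed) 6 were lower, with a median of -1.37 (-1.33 with genes near background at their bound). Krt19 read 6.21 and 6.33 in SSCTR, against 8.82 and 8.93 in POF and 7.13 and 6.94 in WT, a log2 change of -2.60 ± 0.17 (adjusted p = 5.05e-05), and Krt7 had 5.26 and 5.79 in SSCTR, against 7.96 and 8.45 in POF and 5.69 and 5.90 in WT, a change of -2.68 ± 0.24 (adjusted p = 0.00025). Krt8, the partner of Krt18, changed by -0.87 ± 0.24, and by -0.49 without POF replicate 3. In the list of surface epithelium and mesothelium 10 of 19 measured genes (27 listed) were lower and 1 higher. Upk1b, a uroplakin of mesothelium, stood at 6.26 and 5.29 in SSCTR, against 8.61 and 8.89 in POF and 5.74 and 5.47 in WT, a change of -2.98 ± 0.30 (adjusted p = 0.00041), and Upk3b, the brightest of the list, changed by -1.73 ± 0.20 (adjusted p = 0.000958). Aldh1a2, which makes retinoic acid, changed by -2.11 ± 0.28 and the gonad factor Lhx9 by -1.56 ± 0.22. Of 15 measured tight junction genes (27 listed) 7 were lower, among them Cldn15 (-2.09) and Cldn10 (-1.38), above background in both groups. The lower calls Cldn2, Cldn3, Cldn23 and Ocln were above background on no SSCTR array and passed the filter through POF alone. Their bounds were 1.66-fold, 5.14-fold, 1.7-fold and 1.51-fold. The summed level of the surface list was 2777 and 2464 intensity units in SSCTR, against 6179 and 7139 in POF and 3220 and 3142 in WT. Lhx9 had another probe that was above background on fewer than 4 arrays and did not pass the test. Krt8 missed the threshold without SSCTR replicate 2, SSCTR replicate 3 or POF replicate 3 (adjusted p 0.136 to 0.204).

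Secreted protease inhibitors and proteases belonged to the same side. Of 14 measured lipocalin, WAP and antimicrobial genes (29 listed) 9 were lower and 2 higher, Bpifb6 and Wfdc10 (0.96, and 0.62 without POF replicate 2). Slpi, an inhibitor of neutrophil elastase, read 5.70 and 5.33 in SSCTR, against 8.98 and 8.76 in POF and 6.76 and 7.25 in WT, a log2 change of -3.36 ± 0.22 (adjusted p = 5.71e-05). Wfdc15b was at least 10.3-fold lower on its main probe, and a second, near background, did not pass the test. Of 8 measured kallikreins (25 listed) 6 were lower, with a median of -1.65 (-1.62 with genes near background at their bound). Klk1b21, Klk1b24 and Klk11 were above background on no SSCTR array and passed the filter through POF alone. Klk11, among the lower calls, was at least 1.11-fold lower. Klk1b21 was at least 6.29-fold lower, with 4.43 and 4.34 in SSCTR, against 7.55 and 7.45 in POF and 4.48 and 4.36 in WT, and Klk1b27 changed by -2.47 ± 0.27 (adjusted p = 0.000718). Of 15 measured genes of a list of serpins and alpha-2-macroglobulin family inhibitors (40 listed) 7 were lower and 2 higher. The lower calls include A2ml1, which is not a serpin. Serpina1e, of the alpha-1-antitrypsin cluster, was at least 7.6-fold lower, with 4.31 and 4.38 in SSCTR, against 7.99 and 7.56 in POF and 4.33 and 4.35 in WT. Its neighbour Serpina1b gave probes that passed the test in both directions, with 2 at least 3.25-fold and 1.96-fold higher and 1 at least 1.68-fold lower. Kallikreins and alpha-1-antitrypsins are clusters of near-identical copies, and their probes may read more than 1 gene. Wfdc10 had another probe that did not pass the test (-0.30). Wfdc10 missed the threshold without SSCTR replicate 2, SSCTR replicate 3 or POF replicate 2 (adjusted p 0.0939 to 0.155).

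**Figure D5:**
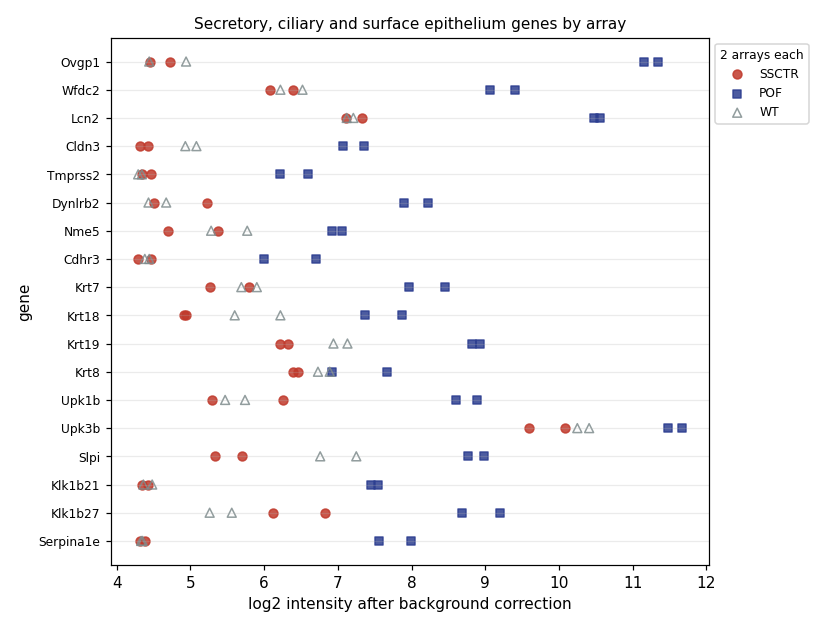
Log2 intensity (x axis) of secretory, ciliary, keratin, mesothelial, kallikrein and serpin genes (y axis) on each array. Circles are SSCTR, squares POF and triangles WT, with 2 arrays each. For Wfdc2 the levels were 6.39 and 6.08 in SSCTR, against 9.41 and 9.07 in POF and 6.52 and 6.22 in WT. POF arrays lie right of SSCTR arrays for the genes drawn.

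Of 22 measured collagens (30 listed) 2 were lower (1 to 2 without 1 array) and 1 higher, a share of 13.6% against 14.6% of all features called, namely Col6a2 (-1.41), Col6a1 (-0.98) and Col9a2 (0.98). Of 30 measured fibrosis and matricellular genes (43 listed) 9 were higher (4 to 5 without 1 array) and 2 lower (0 to 1 without 1 array), with a median of 0.15. Mfap4, a microfibril protein, read 9.26 and 9.33 in SSCTR, against 7.72 and 7.97 in POF and 9.06 and 9.17 in WT, a log2 change of 1.45 ± 0.17 (adjusted p = 0.000992), and Mfap5 changed by 1.41 ± 0.21 (adjusted p = 0.00338). Tnc, the matrix protein tenascin C, had 10.66 and 10.71 in SSCTR, against 9.40 and 9.20 in POF and 8.52 and 8.34 in WT, a change of 1.39 ± 0.17 (adjusted p = 0.00118), and SSCTR exceeded both POF and WT. Tgfb1, the growth factor TGF-beta, changed by 1.16 ± 0.23 (adjusted p = 0.0121). Col6a2 and Tnc had other probes that did not pass the test, with log2 changes of -0.31 for Col6a2 and 0.89 for Tnc. Col6a1 and Tnc each had another probe that was above background on fewer than 4 arrays and did not pass the test. Tgfb1 missed the threshold without SSCTR replicate 2 or POF replicate 2 (adjusted p 0.0638 to 0.0814), and Col6a1 without SSCTR replicate 2 or POF replicate 3 (adjusted p 0.0533 to 0.066). Col9a2 missed the threshold without any of the 4 arrays (adjusted p 0.0659 to 0.124).

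Detoxification enzymes gave 10 lower (6 to 8 without 1 array) and 3 higher calls (0 to 1 without 1 array) among 40 measured genes (44 listed), with a median of -0.24. Gsta3, a glutathione transferase that also acts in steroid isomerization, read 6.91 and 6.73 in SSCTR, against 8.84 and 9.24 in POF and 6.86 and 7.07 in WT, a log2 change of -2.22 ± 0.19 (adjusted p = 0.000223). Gpx3, the secreted glutathione peroxidase, changed by -0.71 ± 0.16, and Gpx7, that of the endoplasmic reticulum, by 0.81 ± 0.17. Genes that respond within minutes to stimulation or to handling of tissue gave 5 higher calls (1 to 3 without 1 array) among 18 measured (26 listed), with a median of 0.38. Egr3 read 7.48 and 7.30 in SSCTR, against 5.46 and 5.20 in POF and 5.28 and 4.71 in WT, a change of 2.06 ± 0.22 (adjusted p = 0.000638), Fos changed by 1.06 ± 0.23 (adjusted p = 0.0179) and Jun by 0.94 ± 0.18 (adjusted p = 0.0114). Of 24 measured p53 targets (32 listed) 1 was higher (0 without 1 array) and 3 lower (0 to 1 without 1 array). Of 50 measured ribosomal protein genes (76 listed) 2 were lower (0 to 2 without 1 array), and of 63 measured respiratory chain genes (76 listed) 3 were higher (0 to 1 without 1 array). Jun missed the threshold without SSCTR replicate 2 or POF replicate 3 (adjusted p 0.062 to 0.0743), and Fos without SSCTR replicate 3, POF replicate 2 or POF replicate 3 (adjusted p 0.0808 to 0.097). Gpx3 and Gpx7 missed the threshold without any of the 4 arrays (adjusted p 0.0565 to 0.0866).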

How the data were processed

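Whole-ovary RNA was measured on Illumina BeadChips, read out with GenomeStudio per the submitters' processing notes. The deposited table gives an average intensity and a detection p-value per probe and array, per the file headers. Although offered as non-normalized, the sorted intensities of replicates 2 and 3 differ by at most 0.541% between arrays, so the 6 arrays had been brought to 1 distribution before deposit. The deposited replicate 1 intensities are the mean of replicates 2 and 3 times 1 of 17 factors for SSCTR, 9 for POF and 6 for WT. Their deposited detection values exceed 1 and are a score, not a p-value. A second deposited table holds the authors' normalized intensities, which match quantile normalization of all 9 columns in 99.99% of values (relative tolerance 1e-04). It served as an alternative.

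Intensities of the 6 arrays were corrected with normexp from the detection p-values (neqc, offset 16), quantile normalized and taken to log2 in R 4.3.3 with limma 3.58.1. The number of arrays limits the precision. Symbols came from the platform annotation, updated through RefSeq, with 34885 probes holding 1 symbol, 18 several and 10378 none. The probe with the highest mean over the arrays compared stood for a gene. One limma model with empirical Bayes variances covered SSCTR, POF and WT (3 residual and 5.42 prior degrees of freedom), with Benjamini-Hochberg adjustment over 12734 features, and was tested on simulated data. A probe below background in the lower group gives a bound, from the lowest signal above background on each array or its own signal where that is higher.

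Named genes were the 15 largest rises and falls, for each list up to 4 of the largest calls and the brightest member, any member of a family described, and marker genes. The members and lists were chosen with earlier results of these data known. Same-numbered SSCTR and POF arrays did not deviate together (r = -0.00676 across 12734 features), and the main fit did not pair them. A single correlation from 2 arrays in each group cannot show whether the samples were paired by design. Alternatives varied the background correction, source table, offset, columns, groups, filter, probe rule, variance prior, replicate block and the arrays left out.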

Additional observations from a re-analysis of the deposited data

How the results depend on the processing

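Against 1500 named genes called (656 higher, 844 lower), of which 694 changed at least 2-fold, the count was 1748 without background correction, 1794 in the authors' normalized table, 1759 with an offset of 50, 1284 with only the SSCTR and POF arrays, 1237 with detection p under 0.01 on all 4 arrays, 1405 with the filter over 6 arrays, 1188 without a filter, 1522 with the mean of all probes and 1861 with an intensity trend. Counts of at least 2-fold changes were 193 without background correction, 224 in the authors' table, 344 with an offset of 50 and 440 with the stricter detection filter, which tested 7768 named genes in place of 10247. With the replicate 1 columns included, which are computed from the others, 4014 genes were called, 2030 higher and 1984 lower.

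Leaving out 1 array of the 6 gave 753 to 1284 calls, 294 to 552 higher and 459 to 732 lower. The count was 909 without SSCTR replicate 2, 790 without SSCTR replicate 3, 870 without POF replicate 2 and 753 without POF replicate 3, and the cause was not tested. With the replicate number as a block, 1314 genes were called, 1282 of them shared with the fit without it, and 8 of the 201 called genes among the 213 followed by name missed the threshold.

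The number of these 201 genes that missed the threshold was 17 without a filter, 12 with the mean of all probes, 9 with only the SSCTR and POF arrays or without either WT array and at most 3 under the other settings of background, source table, offset, columns, filter and prior, of which the stricter filter left 163 called genes to compare. It was 33 to 52 without 1 SSCTR or POF array. Csf1r, not called, changed sign to -0.18 and Ihh, not called, to 0.54 with the mean of all probes, and Csf1r ranged over -0.18 to 0.27 with 1 array left out. The medians of 57 gene lists changed sign for 0 to 4 lists across settings that left out no single array and for 0 to 6 with 1 array left out. Signal close to background limits the fold of dim probes, which is given as a bound.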
